A study of Mus musculus with 10 samples.

Results

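The genes described here encode alpha subunits of heterotrimeric G proteins, and they were measured by RNA sequencing of the mouse thymus after knock-out of Usp7, which encodes a deubiquitinating enzyme. There were 10 members among the 35375 features of the count table: Gnai1, Gnai2, Gnai3, Gnao1, Gnas, Gnaq, Gna11, Gna12, Gna13 and Gna15. Gnai1 was selected on its measured log2 fold change, as one of the largest rises in homozygous KO over wild type, and the other 9 were taken with it because they belong to the same family. The values of Gnai1 are therefore given as a description, with no test in any comparison, and tests are given for the other 9. All 10 genes passed the filter on low counts, which left 19511 features for testing.

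Whole thymus was taken 3 days after birth from 10 C57BL/6J mice, and total RNA depleted of ribosomal RNA was sequenced with 1 library per animal. Homozygous KO (n = 3) lacked Usp7 on both alleles in the hematopoietic system, heterozygous KO (n = 3) had lost it on 1 allele, and the wild type (n = 4) kept both. The series counts 2 wild types that carry cre, the recombinase used for the deletion, and 2 that do not, but not which libraries these are, and the sources used here do not name the promoter that drives cre. Other cells of the thymus, such as epithelium and vessels, lie outside the hematopoietic system and were not the target of the deletion.

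The library totals ran from 39.8 to 122.4 M counts, and depth differed between the groups. Wild types 1 to 4 were at 39.8, 41.0, 86.4 and 81.0 M. All were below heterozygous KO (90.5 to 97.4 M) and homozygous KO (92.3 to 122.4 M). Usp7 itself was used to check the labels. Its level was 303 to 422 CPM (counts scaled by TMM to a common library total) in homozygous KO. It was 472 to 516 CPM in heterozygous KO and 589 to 676 CPM in wild type, and the 3 groups did not overlap. Wild types 3 and 4, whose column names add the word het, were at 594 and 589 CPM. Wild types 1 and 2 were at 676 and 670 CPM, so this check leaves the word het in those names unexplained. Homozygous KO kept 59.7% of the wild-type level of Usp7, a log2 fold change of -0.74 (SE 0.11) that passed the test (adjusted p = 5.25e-04 by edgeR). Heterozygous KO was at 79.2% of it, and the log2 fold change of -0.34 (SE 0.11) did not pass (adjusted p = 0.608 by edgeR). All 8 thymocyte markers, Cd3e, Cd4 and Cd8a among them, were expressed. Their summed level of 9039 to 9376 CPM in homozygous KO was below the 10490 to 11241 CPM of heterozygous KO and the 10726 to 11977 CPM of wild type. The lower sum came from Rag1, with a mean of 3491 CPM in homozygous KO, 5718 CPM in heterozygous KO and 6300 CPM in wild type. Against wild type, Rag1 alone of these markers passed as lower, and Cd8a and Lck passed as higher. Xist, which is transcribed from the inactive X chromosome of females, was over 100 CPM in 1 of 3 homozygous KO, 0 of 3 heterozygous KO and 3 of 4 wild-type libraries, so the mix of sexes differed between groups. In bulk tissue, fewer cells of a type and less RNA per cell cannot be told apart.

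An alpha subunit holds GDP at rest, and an activated receptor makes it exchange GDP for GTP and part from its beta and gamma partners. Subunits of the Gi class (Gnai1, Gnai2, Gnai3) lower cyclic AMP by inhibiting adenylyl cyclase, Gs (Gnas) raises it, and those of the Gq class (Gnaq, Gna11, Gna15) activate phospholipase C beta. Gna12 and Gna13 form the G12 class. In the thymus, chemokine receptors and the sphingosine 1-phosphate receptor that guide migrating thymocytes signal mainly through Gi.

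The promoters of the 3 members with the largest differences in homozygous KO are printed because the study centres on E-proteins, basic helix-loop-helix factors whose binding motif is the E-box, and a reader may want to see the letters upstream of these genes. Each run is the 250 bases before the annotated start in RefSeq on the build GRCm38.p6, 5′ to 3′ on the gene's own strand. E-boxes, searched as CANNTG, which reads the same on both strands, are in capitals. The search takes any middle letters and does not tell which factor binds, and binding was not measured in these libraries. The windows lie at chr5:18360414-18360663 on the minus strand for Gnai1, chr19:16132434-16132683 on the plus strand for Gnaq and chr10:81524226-81524475 on the minus strand for Gna15.

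Gnai1: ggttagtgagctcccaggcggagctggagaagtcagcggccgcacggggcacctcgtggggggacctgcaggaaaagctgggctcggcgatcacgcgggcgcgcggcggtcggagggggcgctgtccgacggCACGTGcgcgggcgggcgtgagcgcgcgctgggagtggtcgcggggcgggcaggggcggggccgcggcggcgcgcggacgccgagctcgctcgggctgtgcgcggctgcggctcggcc

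Gnaq: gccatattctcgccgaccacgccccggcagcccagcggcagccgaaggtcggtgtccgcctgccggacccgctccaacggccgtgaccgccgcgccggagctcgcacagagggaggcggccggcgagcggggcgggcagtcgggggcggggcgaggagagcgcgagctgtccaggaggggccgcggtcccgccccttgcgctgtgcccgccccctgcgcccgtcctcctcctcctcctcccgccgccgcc

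Gna15: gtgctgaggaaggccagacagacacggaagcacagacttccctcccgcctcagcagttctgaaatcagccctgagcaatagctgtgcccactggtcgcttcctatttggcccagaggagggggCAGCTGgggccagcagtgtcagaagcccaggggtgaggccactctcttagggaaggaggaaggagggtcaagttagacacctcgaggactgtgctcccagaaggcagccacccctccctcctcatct

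The Gnai1 window held 1 E-box, CACGTG, whose first base lay at -118 from the start, and 43 CG dinucleotides. The Gnaq window held no E-box and 37 CG dinucleotides. The Gna15 window held 1 E-box, CAGCTG, with its first base at -127, and 4 CG dinucleotides, near the median of 6 over 32841 windows of 250 bases. The RefSeq table matched 9 of the 10 members, all but Gnai2, and 6 of these had an E-box in at least 1 window. Of all windows, 66.2% held one, which is close to the share among the matched members.

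Gnai1 encodes a Gi subunit that is abundant in brain and takes part in orienting the mitotic spindle. Its level was 7.09, 15.5 and 22.1 CPM in the 3 homozygous KO libraries. It was 0.330, 0.869 and 0.261 CPM in heterozygous KO and 0.123, 0.241, 0.484 and 0.411 CPM in wild type. Every homozygous KO library lay above every other library, while heterozygous KO and wild type overlapped. The raw counts were 817, 1589 and 1992 in homozygous KO against 24 to 83 in heterozygous KO and 5 to 43 in wild type, so the lower levels rest on few reads. The log2 fold change of Gnai1 was 5.45 in homozygous KO over wild type, a 43.8-fold difference. It was 4.93 over heterozygous KO, and 0.52 in heterozygous KO over wild type. No SE is given for these values, since it would come from the test.

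By the log2 fold change it was selected on, Gnai1 was 10th of 19511 in homozygous KO over wild type. The 3 homozygous KO libraries differed among themselves, with the lowest in replicate 1, whose animal was numbered 50. On log2(CPM + 0.1), the difference of Gnai1 was 4.34 among the animals numbered 44 to 51 (1 homozygous KO, 3 wild types) and 5.19 among those numbered 56 to 63 (2 homozygous KO, 1 wild type). Against only the wild types with 2 wt words in the title the log2 fold change was 6.34. These are wild types 1 and 2, of the lowest depth, which held 5 and 10 counts of Gnai1. None of the 3086 runs of 50 bases in the annotated Gnai1 transcripts occurred in another gene, so reads of that length from Gnai2 or Gnai3 would not match it.

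Against the rest of the family, Gnai1 moved from the bottom of the order to its middle. Levels between genes are compared as RPKM, which is CPM per kilobase of annotated exon. In wild type the mean RPKM was 137 for Gnai2, 77.3 for Gnai3 and 39.8 for Gna13, and these 3 were apart from each other and from all others. Gna12 at 9.73 and Gna11 at 7.77 RPKM overlapped. Gnaq at 2.72, Gnas at 1.64 and Gna15 at 0.746 RPKM followed without overlap, and Gnao1 at 0.126 and Gnai1 at 0.1004 RPKM overlapped at the end. In homozygous KO the mean of Gnai1 was 4.75 RPKM (range 2.26 to 7.04), the 6th of the 10, overlapping Gna11 from below and lying above Gnas, Gnaq, Gna15 and Gnao1. The annotated exons of Gnas and Gnao1 add up to 11186 and 11053 bases, with alternative and long terminal exons, so the RPKM of these genes may be too low in the order.

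**Figure D1:**
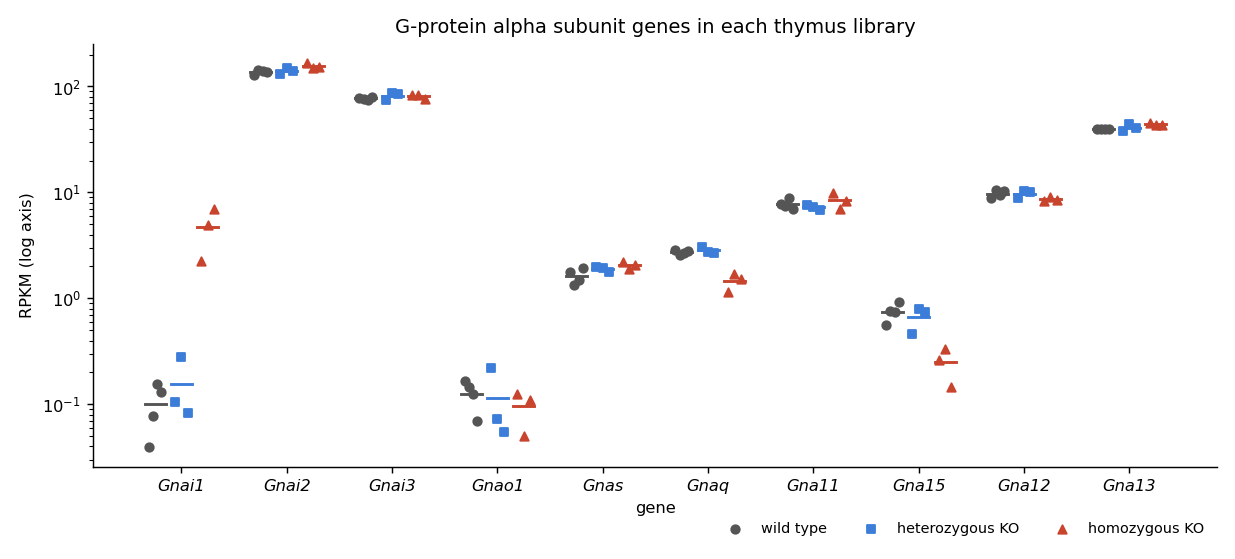
RPKM (log axis) of the 10 alpha subunit genes in each thymus library, with 4 wild-type, 3 heterozygous KO and 3 homozygous KO points per gene and a bar at each group's mean. Gnai1 lies at 2.26 to 7.04 RPKM in homozygous KO and below 0.3 RPKM elsewhere, while Gnaq and Gna15 are lowest in homozygous KO.

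Even at its highest Gnai1 was a minor part of the Gi class. It made up 1.99% of the summed RPKM of Gnai1, Gnai2 and Gnai3 in homozygous KO (0.902% to 2.99% over libraries), 0.0686% in heterozygous KO and 0.0467% in wild type. The class as a whole had a summed level of 235 to 251 RPKM in homozygous KO, 206 to 235 in heterozygous KO and 207 to 220 in wild type, most of it from Gnai2.

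Gnai2 encodes the leading Gi subunit of lymphocytes. It was at 627, 565 and 573 CPM in homozygous KO, 496, 559 and 533 CPM in heterozygous KO and 486, 540, 525 and 513 CPM in wild type. Homozygous KO libraries lay above all others, by a narrow margin. The rise over wild type was 0.19 on the log2 scale (95% interval 0.05 to 0.32, adjusted p = 0.0433 by edgeR, SE 0.06). It was lost in 14 of 17 alternative settings, where the edgeR or DESeq2 adjusted p ran from 0.0244 to 0.250 over all 17, and with scaling by library totals alone the log2 fold change was 0.09. Against heterozygous KO the difference was 0.15 (adjusted p = 0.153 by edgeR, SE 0.07). Gnai3, which encodes a Gi subunit of most tissues, was at 250 to 273 CPM in homozygous KO and 244 to 257 CPM in wild type, with a log2 fold change of 0.07 (adjusted p = 0.449 by edgeR, 95% interval -0.06 to 0.20) that turned to -0.03 with library totals alone.

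Gnaq encodes the Gq subunit that couples many receptors to phospholipase C beta. It was at 7.12, 10.4 and 9.49 CPM in homozygous KO. In heterozygous KO it was at 19.0, 16.9 and 16.7 CPM, and in wild type at 17.7, 15.8, 16.4 and 17.3 CPM. All 3 homozygous KO libraries were below all 7 others, which overlapped. Gnaq fell to 53.6% of the wild-type level, which is -0.90 on the log2 scale (adjusted p = 3.74e-04 by edgeR, SE 0.12), and to 51.3% of the heterozygous KO level, which is -0.96 (adjusted p = 4.72e-04 by edgeR, SE 0.13). The difference from wild type was -1.21 among animals 44 to 51 and -0.79 among animals 56 to 63 on log2(CPM + 0.1), and with Xist as a covariate it was -0.90 (adjusted p = 0.00143 by edgeR).

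Gna15 encodes a Gq class subunit found mainly in blood cells. Its level was low in every library: 0.564, 0.714 and 0.310 CPM in homozygous KO, 0.980, 1.69 and 1.601 CPM in heterozygous KO, and 1.203, 1.61, 1.59 and 1.97 CPM in wild type. The homozygous KO libraries were again below all 7 others. Gna15 fell to 33.3% of the wild-type level, which is -1.59 on the log2 scale (adjusted p = 0.00425 by edgeR, SE 0.32), and to 37.4% of the heterozygous KO level, which is -1.42 (adjusted p = 0.0134 by edgeR, SE 0.33). The second of these calls did not hold when heterozygous KO replicate 2 (adjusted p = 0.0512 by edgeR) or 3 (0.0517) was left out. Among animals 44 to 51 the difference from wild type was -1.23 and among animals 56 to 63 it was -1.84, on log2(CPM + 0.1). Both Gnaq and Gna15 overlap antisense genes in the annotation, and no strand setting is given for the counting. Their counts are therefore uncertain where these genes overlap, in a direction that is not known.

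Gna11, the remaining Gq class member, was at 40.9, 28.7 and 34.2 CPM in homozygous KO and 28.5 to 36.6 CPM in wild type. These groups overlapped, and the log2 fold change was 0.12 (adjusted p = 0.492 by edgeR, 95% interval -0.14 to 0.38). Since Gna11 is the most abundant of the 3 by RPKM, the summed level of the class was 9.03 to 11.4 RPKM in homozygous KO and 10.7 to 12.3 RPKM in wild type.

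The members of the other classes showed small differences, and none passed the test against wild type. Gna13, a G12 class subunit that restrains lymphocyte migration, was at 293, 279 and 276 CPM in homozygous KO against 252 to 257 CPM in wild type. These groups did not overlap, but the log2 fold change of Gna13 was 0.14 (95% interval 0.03 to 0.26) with an edgeR adjusted p of 0.0676, and heterozygous KO at 244 to 281 CPM spanned both. Gna12, of the same class, had a log2 fold change of -0.18 (adjusted p = 0.137 by edgeR, 95% interval -0.36 to 0.00180), and it was called lower under scaling by library totals (adjusted p = 0.0272 by edgeR) and with the animal numbers as a block (0.0379).

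Gnas, the Gs subunit, was at 24.5, 21.1 and 23.1 CPM in homozygous KO and 19.99, 14.9, 16.8 and 21.6 CPM in wild type. The ranges of Gnas overlapped, with a log2 fold change of 0.32 (adjusted p = 0.0699 by edgeR, 95% interval 0.06 to 0.58) that passed with DESeq2 (adjusted p = 0.0348). Its locus also makes imprinted and antisense transcripts, which the counts do not separate. Gnao1, the Go subunit of neurons, was at 0.557 to 1.40 CPM in homozygous KO and 0.774 to 1.82 CPM in wild type, and its log2 fold change of -0.39 had a wide interval of -1.49 to 0.71 (adjusted p = 0.609 by edgeR).

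In homozygous KO over wild type, 3 of the 9 tested members thus passed an edgeR adjusted p of 0.05, Gnai2 higher and Gnaq and Gna15 lower, where 25.8% of all tested genes did, 12.5% higher and 13.2% lower. An unadjusted p under 0.05 was reached by 5 of the 9 and by 37.4% of all tested genes. In 4 of the 9 (Gnai2, Gnaq, Gna15 and Gna13) the groups did not overlap, against 32.7% of all tested genes. The median log2 fold change of the 9 was 0.07, beside -0.01 over all tested genes. With library totals alone the median of all genes moved to -0.11 and 3 members passed, all lower, since Gna12 was called and Gnai2 was not.

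In homozygous KO over heterozygous KO, 2 of the 9 members passed, Gnaq and Gna15, both lower, where 17.1% of all tested genes passed, 7.63% higher and 9.5% lower. An unadjusted p under 0.05 was reached by 3 of the 9 and by 28.8% of all tested genes. The groups did not overlap in 3 of the 9 (Gnai2 in addition), against 33.3% of all tested genes. This comparison shares its homozygous KO libraries with the one above.

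In heterozygous KO over wild type, 0 of the 9 members passed with edgeR, 0 had an unadjusted p under 0.05 and 0 passed with DESeq2. Over all tested genes 0.0154% passed, all higher, and 7.28% had an unadjusted p under 0.05. None of the 9 had groups that did not overlap, against 8.69% of all genes. The 95% interval of the log2 fold change was -0.20 to 0.33 for Gnaq, -0.10 to 0.17 for Gnai2 and -0.84 to 0.50 for Gna15. A change in Gna15 of the size seen in homozygous KO thus lay outside its interval, and falls of up to 0.84 lay within it. Gnao1 had the widest interval, -1.21 to 0.97.

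**Figure D2:**
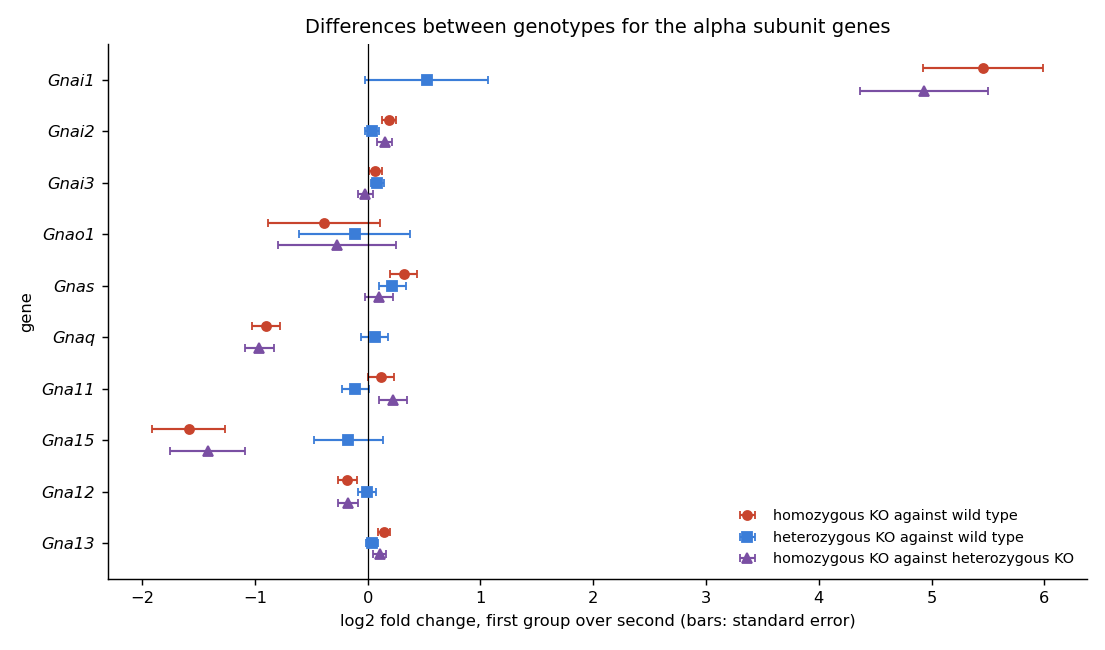
Log2 fold change with its standard error for each alpha subunit gene in the 3 comparisons, first group over second. The bars of Gnai1 are not to be read as a test, because it was selected on its rise. Gnai1 stands at 5.45 and 4.93 in the comparisons with homozygous KO, Gnaq at -0.90 and -0.96 and Gna15 at -1.59 and -1.42, while heterozygous KO over wild type lies at 0.52 for Gnai1 and between -0.17 and 0.22 for the others.

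Of the other genes of G-protein signalling, 74 were listed and 69 passed the filter. In homozygous KO over wild type 27 of the 69 passed an edgeR adjusted p of 0.05, 8 higher and 19 lower. That is 39.1% of the list, where 25.8% of all tested genes passed, and the median log2 fold change was -0.25 over the 69 and -0.01 over all tested genes. The lists, receptors included, were chosen with earlier results of these data known. Shares above that of all genes, here and in each list below, are therefore descriptions and not tests of the lists. With library totals alone 35 passed, 6 of them higher. In heterozygous KO over wild type 0 of the 69 passed with edgeR, 7 had an unadjusted p under 0.05 and 0 passed with DESeq2. Over all tested genes 7.28% had an unadjusted p under 0.05 there. In homozygous KO over heterozygous KO 21 of the 69 passed, 7 higher and 14 lower, which is 30.4% where 17.1% of all tested genes passed.

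Receptors that couple to these subunits had the lowest median log2 fold change of the 7 lists, -0.72 in homozygous KO over wild type. Of 14 tested, 6 fell and 2 rose, 57.1% against the 25.8% of all genes. Ccr7, the chemokine receptor that draws maturing thymocytes to the medulla, fell from 33.7 to 56.7 CPM in wild type to 1.14 to 12.97 CPM, a log2 fold change of -2.96 (adjusted p = 0.0109 by edgeR, SE 0.71). Ccr8, a chemokine receptor of T cells, fell by 3.04 on the log2 scale (SE 0.60). S1pr1, through which thymocytes leave the thymus, fell by 2.12 on the log2 scale (SE 0.33). These sizes depended on homozygous KO replicate 1, without which the log2 fold changes were -5.02 for Ccr7, -4.44 for Ccr8 and -2.77 for S1pr1. The Ccr7 call was lost with only the wild types with 2 wt words (adjusted p = 0.0518 by edgeR). Cxcr4, the chemokine receptor of immature thymocytes in the cortex, rose by 0.30 (adjusted p = 0.0344 by edgeR, SE 0.09), although its groups overlapped and the call was lost in 9 of 17 alternative settings (adjusted p up to 0.279 by edgeR), homozygous KO replicate 1 and wild type replicates 1, 2 and 4 left out among them. Ptger2, a prostaglandin E2 receptor that couples to Gs, rose by 0.80 (SE 0.19), a call lost with only the wild types with 2 wt words (adjusted p = 0.0764 by edgeR).

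RGS proteins speed up GTP hydrolysis by alpha subunits. Of 14 tested, 4 fell and 1 rose, 35.7% against the 25.8% of all genes, with a median log2 fold change of -0.39. Rgs3 was at 2.83 to 4.01 CPM in homozygous KO against 20.2 to 26.9 CPM in heterozygous KO and 16.2 to 25.6 CPM in wild type. Homozygous KO lay below both other groups, with a log2 fold change of Rgs3 of -2.66 over wild type (adjusted p = 5.70e-06 by edgeR, SE 0.19). Rgs11 fell by 1.77 (SE 0.41), Rgs18 by 1.55 (SE 0.38) and Rgs16 by 1.52 (SE 0.45) on the log2 scale, and Rgs12 rose by 0.40 (SE 0.08). Rgs11 was at 0.0776 to 0.156 CPM in homozygous KO, 0.152 to 0.300 CPM in heterozygous KO and 0.338 to 0.568 CPM in wild type. Heterozygous KO thus also lay below wild type for Rgs11 (log2 fold change -1.11, adjusted p = 0.642 by edgeR) and overlapped homozygous KO. Rgs18 was at most 1.25 CPM, and its homozygous KO and wild-type groups overlapped. Rgs16 was named after its value was seen, to complete the 4, and its call was lost in 6 of 17 alternative settings (adjusted p up to 0.106 by edgeR), homozygous KO replicates 1 and 2 and wild type replicate 4 left out among them. The Rgs18 call was lost with only the wild types with 1 wt word (adjusted p = 0.0882 by edgeR).

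Of the effectors, 6 of 14 tested fell and 1 rose, 50% against the 25.8% of all genes, with a median log2 fold change of -0.10. The adenylyl cyclases Adcy7 and Adcy9 fell by 1.04 (SE 0.11) and 0.86 (SE 0.28) on the log2 scale. The Adcy9 call was lost in 10 of 17 alternative settings (adjusted p up to 0.216 by edgeR), homozygous KO replicate 2 and each wild type left out among them, and its log2 fold change ran from -1.12 to -0.52 over left-out libraries. Of the phospholipase C beta genes, which encode the enzymes that Gq subunits activate, Plcb2 fell by 0.71 (SE 0.12) and Plcb3 rose by 0.51 (SE 0.08).

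Of the partners of alpha subunits, 2 of 5 beta genes rose and none fell, with a median log2 fold change of 0.18. Gnb1, a beta subunit of most tissues, was at 401 to 414 CPM in homozygous KO and 319 to 337 CPM in wild type, and rose by 0.32 on the log2 scale (adjusted p = 4.71e-04 by edgeR, SE 0.05). Gnb3 rose by 1.18 (SE 0.28), and 40% of the beta genes passed, against the 25.8% of all genes. Of 10 gamma genes tested 3 fell and none rose, 30% against the 25.8% of all genes, with a median of -0.04. Gng2 fell by 1.18 (SE 0.17), Gng7 by 1.04 (SE 0.26) and Gng12 by 0.50 (SE 0.11) on the log2 scale. The calls of Gnb3 (adjusted p = 0.0755 by edgeR) and Gng7 (0.0986) were lost with only the wild types with 1 wt word. Among 6 regulators that bind alpha subunits apart from receptors and RGS proteins, with a median of -0.08, Gpsm2 alone passed. That is 16.7% against the 25.8% of all genes. Gpsm2 links Gi subunits to the mitotic spindle, and it was at 70.1 to 98.8 CPM in homozygous KO and 48.7 to 58.8 CPM in wild type, a rise of 0.62 on the log2 scale (adjusted p = 0.00147 by edgeR, SE 0.11).

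**Figure D3:**
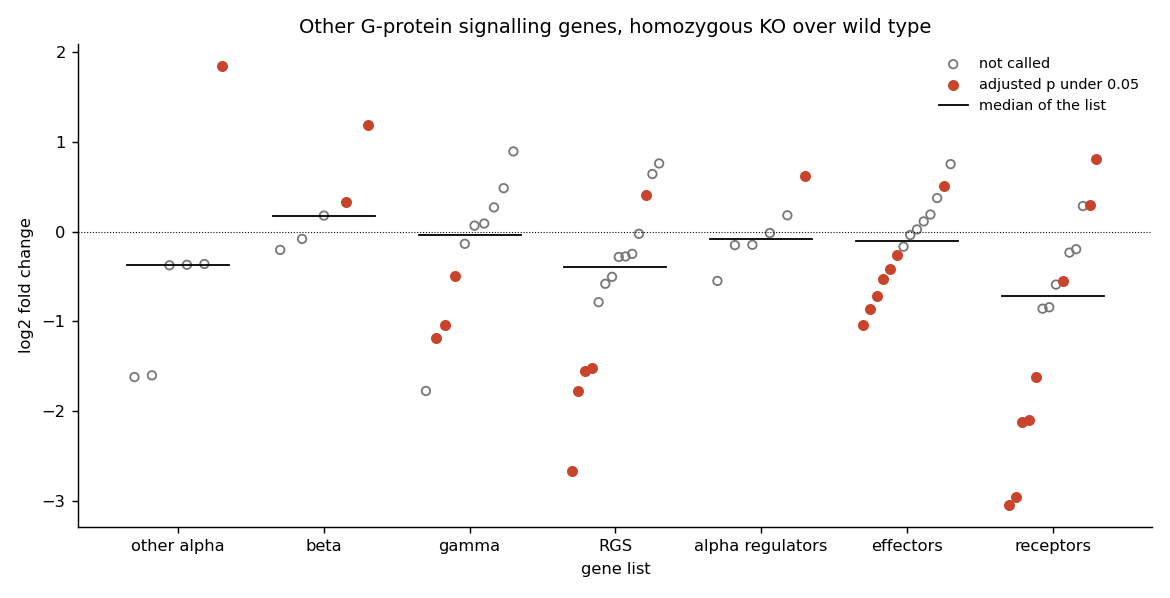
Log2 fold change in homozygous KO over wild type of the 69 tested genes of G-protein signalling, by list, with genes past an edgeR adjusted p of 0.05 filled and a line at each list's median. The receptors have the lowest median, -0.72, and the beta genes the highest, 0.18.

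Among 6 other alpha genes, with a median log2 fold change of -0.37, only Gnat3 passed, 16.7% against the 25.8% of all genes. Gnat3 encodes gustducin, the alpha subunit of taste receptor cells, and it lies beside Gnai1 on chromosome 5. It had 39, 16 and 43 counts in the homozygous KO libraries. Those of heterozygous KO had 0, 1 and 1 counts and the wild types 5, 4, 11 and 2. Homozygous KO was above both other groups, and the level was under 0.5 CPM in every library. The log2 fold change over wild type was 1.84 (adjusted p = 0.0398 by edgeR, SE 0.59), a call lost in 14 of 17 alternative settings. Gnat3 passed the filter on low counts only through its level in homozygous KO. This call carries that selection and is given as a description only. Over heterozygous KO, where 2 counts stood against 98, the ratio of the summed rates was 43.0 (95% exact interval 11.6 to 360), which covers counting error only.

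Of the 3 tested genes on either side of Gnai1, Gnat3 was the nearest on its lower side, followed by Cd36, a fatty acid receptor, and Sema3c, a secreted guidance protein. Rpl31-ps5, Phtf2 and Tmem60 lay on the higher side. Cd36 was at 2.39, 4.72 and 1.92 CPM in homozygous KO and 1.65 to 2.74 CPM in wild type, which overlap, with a log2 fold change of 0.38 (SE 0.31). The log2 fold changes were 0.98 (SE 0.69) for Sema3c, -0.27 (SE 0.41) for Rpl31-ps5, -0.16 (SE 0.08) for Phtf2 and -0.05 (SE 0.09) for Tmem60, and none of these 5 passed the test in homozygous KO over wild type.

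**Figure D4:**
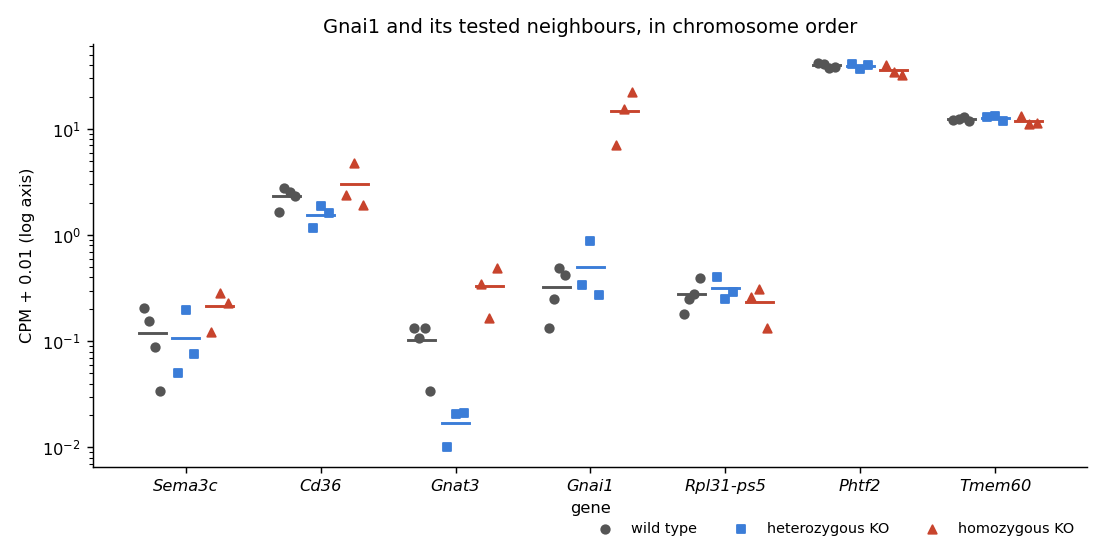
CPM plus 0.01 (log axis) of Gnai1 and the 3 tested genes on either side of it in chromosome order, with 1 point per library and a bar at each group's mean. Gnai1 and Gnat3 have every homozygous KO library above all others, and the remaining 5 genes overlap between homozygous KO and wild type.

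Genes like Gnai1 were sought among tested genes with a mean log2 CPM of at least 2, predicted genes left out. Those whose log2 CPM followed Gnai1 most closely over the 10 libraries were Gnb1l (Pearson r = 0.995), Sema6c (0.984), Rcor2 (0.982), Tmem120b (0.978) and Plod2 (0.978). Their group means differed far less than those of Gnai1. Gnb1l, whose product has repeats like those of G-protein beta subunits, had a mean of 20.9 CPM in homozygous KO, 15.3 CPM in heterozygous KO and 14.7 CPM in wild type. Rcor2, a corepressor, had 58.9, 35.2 and 34.6 CPM in that order. Of 10500 genes with a mean log2 CPM of at least 2, predicted genes included, 394 had an r over 0.9. All of these correlations share the same libraries and their 3 groups.

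Markers of other cell types moved with the homozygous KO group as well. Of all tested genes 25.8% passed in homozygous KO over wild type, 12.5% higher and 13.2% lower. All 5 B cell markers fell against wild type, with a summed level of 6.34 to 8.92 CPM against 29.9 to 47.5 CPM, and all 7 macrophage markers fell, with 20.6 to 23.7 CPM against 48.6 to 68.0 CPM. Of 8 neutrophil markers 6 rose, with a summed level of 55.97 to 312 CPM against 7.90 to 24.4 CPM. Their part in the differences of Gnaq, Gna15, Gnai1 and the receptors was not tested. Of 4 tested neural markers, Tubb3 alone passed and rose, which set the summed level of 47.9 to 60.8 CPM against 18.0 to 23.1 CPM. Snap25, a defining marker of neurons, was at 0 in 9 of 10 libraries, and Sox10, of Schwann cells, was at most 0.208 CPM.

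For the remaining markers, 1 of 6 epithelial genes (Krt5), 1 of 5 endothelial genes (Vwf) and 1 of 4 erythroid genes (Klf1) rose in homozygous KO over wild type, and of 6 fibroblast genes 3 collagen genes rose and Pdgfrb fell. Their summed levels overlapped between these groups: 49.6 to 128 CPM against 51.4 to 69.6 CPM for epithelium, 18.8 to 53.0 against 26.3 to 37.0 CPM for fibroblasts, 68.3 to 632 against 103 to 527 CPM for erythroid cells and 151 to 161 against 144 to 158 CPM for endothelium. Pecam1 made up most of the endothelial sum, with a mean of 150 CPM in homozygous KO and 146 CPM in wild type. That sum therefore says little about the other endothelial genes. Of 8 thymocyte markers Cd8a and Lck rose and Rag1 fell. These counts of markers stand beside the 25.8% of all tested genes that passed, 12.5% higher and 13.2% lower.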

How the data were processed

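RNA was measured in 10 thymus libraries. The authors deposited 1 table of raw counts per gene, not normalized; the submitters' processing notes name CASAVA, STAR 2.4.1d and HTSeq 0.6.1p1 and the mouse builds mm9 and NCBIM37, and the annotation release and the strand setting are not given in the sources used here. Columns were matched to samples by animal and library numbers, and groups were taken from the titles. The column names of wild types 3 and 4 add the word het; the title's group was kept. No pair of libraries within a group was a duplicate (chi-square per degree of freedom 13.5 to 116 over 12 pairs).

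Symbols, exon lengths and gene order came from GENCODE M21 (GRCm38), which may differ from the annotation used for counting; symbols matched 30221 of 35375 features. Features without an Ensembl identifier (1.74% to 2.29% of the counts) stayed in the totals. Overlapping and antisense genes have uncertain counts. Counts were tested with edgeR 4.0.16 in R 4.3.3 (TMM, filterByExpr, glmQLFit and glmQLFTest, 1 fit over 10 libraries, Benjamini-Hochberg over 19511 features, threshold 0.05), after tests on simulated data. The SE is the log2 fold change divided by the root of F. At the lowest depth 3 counts are 0.0737 CPM, and such limits cover counting error only. P-values set the group difference against the spread between these animals. The main fit had no term for sex or cre.

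The text names every member, the 3 largest rises and falls among called genes of each signalling list and Usp7. It also names the 3 tested neighbours on either side of Gnai1 and the 5 genes most like it, predicted genes left out. The members and lists were chosen with earlier results of these data known. Alternatives were DESeq2 1.42.0, RLE factors, library totals, no filter, only the groups compared, the replicate number, animal number or Xist as a term, wild types by title form, and leaving out each library. Same-numbered libraries did not deviate together (r = -0.12 to 0.26), so the numbers were not taken as pairs.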

Additional observations from a re-analysis of the deposited data

How the results depend on the processing

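The falls of Gnaq and Gna15 in homozygous KO against wild type passed in all 17 alternatives, with adjusted p-values (edgeR, or DESeq2 for 1) of 3.75e-11 to 0.00645 and 1.89e-05 to 0.0381. The log2 fold change of Gnai1 ran from 4.99 to 6.34. The number of members called was 2 to 4 of 9, and the rise of Gnai2 was the call most often lost. Gnas was called with DESeq2, with the replicate block (adjusted p = 0.0140 by edgeR) and when wild type replicate 4 was left out (0.0221). The numbers did not pair the samples (2 of 10 libraries correlated best with their own number), and the replicate block left 5 genes called in heterozygous KO against wild type, against 3, and 71 were called with DESeq2. Leaving out 1 library gave 2 to 6 (6 without wild type replicate 4). With only the wild types with 1 wt word, 17 signalling genes and 2670 of all genes were called in homozygous KO against wild type. Against heterozygous KO, leaving out 1 library gave 1 to 2 members (1 without heterozygous KO replicate 2 or 3) and 2153 to 2990 genes (2153 without heterozygous KO replicate 3), against 3342.

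DESeq2 gave no adjusted p for Ccr7, nor for Gna15 and Gnao1 in heterozygous KO against wild type, and these were left out there. Directions turned only for log2 fold changes that did not pass the test, apart from Gnai1, which was not tested. The cause was not tested. In homozygous KO against wild type these were Gnai3 with library totals (-0.0276), Gnao1 with the animal-number block (0.13) and Gna11 over left-out libraries (-0.0206 to 0.25). In heterozygous KO against wild type, leaving out 1 library gave -0.19 to 0.82 for Gnai1, -0.000411 to 0.0897 for Gnai2, -0.97 to 0.22 for Gnao1, -0.31 to 0.0457 for Gna15, -0.0499 to 0.0670 for Gna12 and -0.0119 to 0.0966 for Gna13. Gnao1 was at 0.20 with the animal-number block and 0.25 with the wild types with 1 wt word, and Gna15 at 0.0137 with those with 2 wt words. Gna12 was at 0.00123 with no filter, 0.000451 with only the groups compared, 0.0273 with the replicate block, 0.0608 with Xist and 0.0137 with the wild types with 2 wt words. Gnai1 was at 1.57 with Xist and 1.41 with the wild types with 2 wt words. In homozygous KO against heterozygous KO, Gnai3 was at 0.00388 with Xist and -0.0900 to 0.0230 over left-out libraries, and Gnao1 at -0.61 to 0.59. Members under 2 CPM (Gna15, Gnao1 and Gnai1 outside homozygous KO) are the least precise.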
